A study of Mus musculus with 4 samples.

Results

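MHC class II-high and class II-low cells were cut out of the stromal cells of mouse melanomas by their own UMI counts (unique molecular identifiers, which count captured mRNA molecules). Of 24489 deposited cell barcodes, 22691 had 500 to 6000 genes and at most 10% mitochondrial UMIs. Among these, 10198 eligible cells held no UMI of Ptprc, Tyrobp or Pax3, at least 3 UMIs of the collagens Col1a1, Col1a2 and Col3a1 together, and 5000 to 15000 UMIs in all. A high cell had at least 20 UMIs of Cd74 and at least 5 of H2-Aa, H2-Ab1 and H2-Eb1 together, which 3602 cells met. A low cell had at most 1 UMI of Cd74 and none of the other 3 genes, which 922 cells met. The remaining 5674 eligible cells (55.6%) belonged to neither class. High and low cells together made up 19.9% of the 22691 cells kept.

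The cells came from Cxcl13-cre-tdTomato x R26R-eGFPflox mice with host strain C57Bl/6 that had received 400000 B16-F1-OVA cells, an ovalbumin-bearing line of B16 melanoma, into the peritoneal cavity 14 days before harvest. In these mice the Cxcl13 promoter drives tdTomato together with cre, and cre switches on eGFP for good, so tdTomato marks current and eGFP current or past activity of that promoter. All 4 libraries shared genotype, tumor and harvest day, and all were gated on cells lacking CD45 and CD31 and carrying much podoplanin (PDPN), the study's gate for cancer-associated fibroblasts (CAF). They differed in the reporter gate: tdTomato-neg eGFP+, tdTomato+ eGFP-neg, tdTomato+ eGFP+ and tdTomato-neg eGFP-neg, and lists of 4 values below follow that order. Each gate was 1 droplet library of 3′ mRNA, and the number of mice behind each was not given in the sources used here, although every library held cells with Xist UMIs and cells with Y-linked UMIs. The libraries held 10071954 to 90259852 UMIs in all cell barcodes, and 57 barcodes occurred in more than 1 library. With 1 library a gate, no p-value was computed. Folds of high over low cells were taken within a library. The spread between libraries (SD and range) is the error given, which mixes populations and is not a replicate error. Shares and levels given as 1 value per class pool the cells of several libraries and so mix class with library.

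MHC class II molecules show peptides from the endosomal pathway to CD4 T cells and are made by dendritic cells, macrophages and B cells. Other cells, fibroblasts and mesothelial cells among them, can make them after exposure to interferon-gamma, through the transactivator Ciita, which assembles on X and Y boxes in front of the class II genes. Cd74, the invariant chain, fills the groove of the alpha and beta chains (H2-Aa with H2-Ab1) until H2-DM exchanges its remnant for peptide, and without the surface molecules Cd80, Cd86 and Cd40 a class II-bearing cell is not the usual partner for priming T cells.

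Promoter letters are shown because class II and interferon-inducible genes are read through known elements close to their starts. In the 150 bases before the start of 32851 promoter entries of 27025 genes (RefSeq, GRCm38.p6, both strands searched), the X box core AACNGATG was found in 374 entries (1.14%), the Y box core GATTGG in 3595 (10.9%), and both in 34 (0.103%). The interferon element, GAAA repeated after any 2 bases, was found in 521 entries (1.59%). The 6 stretches below were picked among class II, class I and interferon-inducible genes that hold at least 1 of these motifs, written 5′ to 3′ on the gene's strand, with matches to any of the 3 motifs in capitals. The motifs do not overlap in them.
H2-Aa (chr17:34287824-34287973, minus strand): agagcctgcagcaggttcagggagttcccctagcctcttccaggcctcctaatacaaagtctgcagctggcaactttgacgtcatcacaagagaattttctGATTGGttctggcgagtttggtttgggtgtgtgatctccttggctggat
H2-Eb1 (chr17:34305717-34305866, plus strand): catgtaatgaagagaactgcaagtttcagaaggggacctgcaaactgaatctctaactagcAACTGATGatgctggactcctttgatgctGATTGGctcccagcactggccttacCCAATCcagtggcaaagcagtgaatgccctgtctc
H2-DMb1 (chr17:34153041-34153190, plus strand): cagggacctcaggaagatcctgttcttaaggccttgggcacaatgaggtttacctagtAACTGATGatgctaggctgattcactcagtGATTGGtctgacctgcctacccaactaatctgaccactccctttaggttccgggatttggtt
B2m (chr2:122147537-122147686, plus strand): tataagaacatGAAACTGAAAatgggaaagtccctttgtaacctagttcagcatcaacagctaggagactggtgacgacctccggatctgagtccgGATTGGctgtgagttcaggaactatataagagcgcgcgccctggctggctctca
Gbp2 (chr3:142620513-142620662, plus strand): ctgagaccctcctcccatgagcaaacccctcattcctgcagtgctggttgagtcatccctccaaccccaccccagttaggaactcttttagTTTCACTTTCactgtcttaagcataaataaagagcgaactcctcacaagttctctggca
Igtp (chr11:58199406-58199555, plus strand): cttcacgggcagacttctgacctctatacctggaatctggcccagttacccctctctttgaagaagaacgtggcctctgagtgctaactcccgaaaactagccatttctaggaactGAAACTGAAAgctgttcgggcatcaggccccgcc

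In H2-Eb1 and H2-DMb1 the X box core began 89 and 92 bases before the start and a Y box core began 60 and 62 bases before it, so the pair stood at nearly the same place in both. H2-Eb1 held a further Y box core on the other strand 35 bases before its start. H2-Aa held the Y box core 49 bases before its start and no match to the X letters used. The interferon element began 139 bases before the start in B2m, 59 in Gbp2 (other strand) and 34 in Igtp. Of the 6 genes on the class II peptide-loading list, which also holds the beta-chain gene H2-Eb2, 3 held both boxes (H2-DMb1, H2-DMb2 and H2-Eb2). H2-DMa, with 2 entries, held none of the 3 motifs. No MHC class I gene held the X box core, while 10 of 16 with an entry held the Y box core, and 9 of 18 interferon-gamma genes with an entry held the interferon element. Among mesothelial genes 0 of 9, and among matrix genes 1 of 17, held the X box core. Cd74, H2-Ab1 and Ciita had no entry in the promoter table used.

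Between 29.2% and 41.8% of the eligible cells of a library were class II-high. The share was 41.6% in the tdTomato-neg eGFP+ library (1182 of 2839 cells, 95% exact Clopper-Pearson interval 39.8 to 43.5), 36.9% in tdTomato+ eGFP-neg (1031 of 2792, 35.1 to 38.7), 41.8% in tdTomato+ eGFP+ (177 of 423, 37.1 to 46.7) and 29.2% in tdTomato-neg eGFP-neg (1212 of 4144, 27.9 to 30.7). The low class ran the other way, from 2.47% of tdTomato-neg eGFP+ cells (70 cells) through 4.26% of tdTomato+ eGFP+ (18 cells) and 5.19% of tdTomato+ eGFP-neg (145 cells) to 16.6% of tdTomato-neg eGFP-neg cells (689 cells). The library gated on neither reporter thus held the smallest share of high and the largest share of low cells, and its intervals did not overlap those of the other 3 libraries. These intervals cover counting error only, and with 1 library a gate the gate and the library cannot be told apart. The shares describe the rule's own genes. The tdTomato+ eGFP+ library, with fewer than 50 low cells, was left out of the comparison of high with low.

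**Figure D1:**
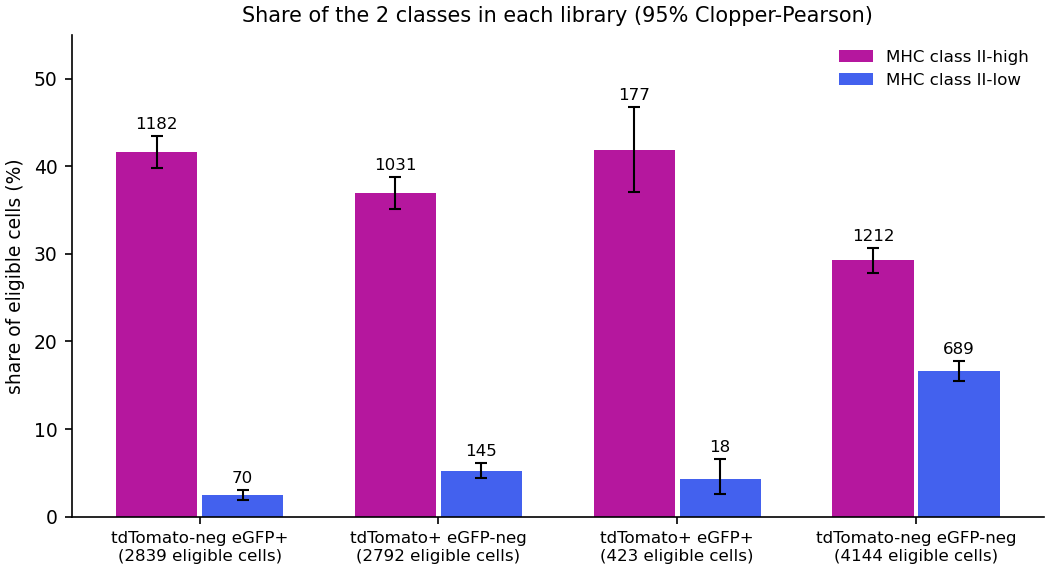
Bars give the percentage of eligible cells in the class II-high and class II-low class for each of the 4 sorted libraries, with 95% Clopper-Pearson intervals and the number of cells above each bar. High cells make up 29.2% of the tdTomato-neg eGFP-neg library and at least 36.9% of the other libraries, and low cells 16.6% of that library and at most 5.19% of the others.

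Typical high cells were well above the limits that define them. Their median was 30, 30, 32 and 31 UMIs of Cd74 and 20, 24, 20 and 17 UMIs of H2-Aa, H2-Ab1 and H2-Eb1 together in the 4 libraries. Summed Cd74 came to 3397, 3361, 3674 and 3732 CPM (the gene's share of all UMIs of the class, per 1000000) in high cells against 33.9, 26.9, 36.6 and 30.4 CPM in low cells. H2-Aa, the alpha chain of I-A, reached 639, 748, 667 and 644 CPM, its partner H2-Ab1 731, 922, 762 and 642 CPM and H2-Eb1, the beta chain of I-E, 886, 991, 821 and 818 CPM in high cells, and the 3 genes were at 0 UMIs in low cells by the rule. H2-Eb1 had the most UMIs of the 3 in each of the 4 libraries, although C57Bl/6 mice do not make its partner chain, and the scale is not divided by transcript length. These values chose the cells and are given without a test.

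Cells on either side of a limit lay close to each other. The 393 cells with 20 or 21 UMIs of Cd74, just inside the high class, had a median of 14 H2 UMIs and summed interferon-gamma genes at 6392 CPM, and the 394 cells with 18 or 19, just outside it, 13 UMIs and 5967 CPM. The 922 low cells held those genes at 3539.6 CPM, the 466 cells with at most 1 Cd74 UMI and 1 H2 UMI at 3787 CPM, and the 100 cells with 2 or 3 Cd74 UMIs and no H2 UMI at 4784 CPM.

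Both classes are labelled fibroblasts, and the label held in part. High cells carried PDPN mRNA at 325, 335 and 269 CPM and low cells at 174, 149.7 and 128 CPM in the 3 libraries compared (values of 3 follow the order tdTomato-neg eGFP+, tdTomato+ eGFP-neg, tdTomato-neg eGFP-neg from here on). Pdgfra is the platelet-derived growth factor receptor that marks most fibroblasts. With the 3 libraries pooled, it had a UMI in 71.6% of high and 66.7% of low cells (57.4% and 55.3% with every cell thinned to 5000 UMIs). Within libraries the summed level of Pdgfra went in both directions. Of 134 melanoma cells from the same libraries (at least 20 UMIs of 4 pigment genes and at most 2 of the collagens), 1.49% had a Pdgfra UMI. Median depth was 9769, 7966 and 10532 UMIs in high, low and melanoma cells. Of 4 fibroblast markers (Pdgfra, Pdgfrb, Thy1 and Pdpn), Pdgfrb and Thy1 were at least 2-fold lower in high cells of each of the 3 libraries compared. By the same limit 0 of the 4 were higher. PDPN was the sort gate and the collagens were part of the rule, so neither is separate support for the label. The median count of the 3 collagens was 118, 184, 166 and 74 UMIs in high cells and 247, 269, 318 and 189 in low cells. High cells also carried the keratins and surface proteins of the mesothelium, the layer that lines the peritoneal cavity and its organs. A median of 15, 5, 5 and 16 UMIs fell on 14 mesothelial genes in high cells and of 0, 1, 1 and 1 in low cells, and 53.9% of high but 1.84% of low cells held 10 or more of them. The cells are therefore called class II-high and class II-low here, with no cell type name.

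Immune RNA was close to absent from both classes. The sort took cells lacking CD45 and the rule cells without UMIs of Ptprc and Tyrobp, so this was in part set by the choice of cells. Of the 27 markers of myeloid, lymphoid and dendritic cells, Csf1r alone passed the level filter, at 42.8, 22 and 49.1 CPM in high and 16.9, 18.7 and 16.8 CPM in low cells. The 14 myeloid markers summed to 71.5, 56.7 and 83.6 CPM in high and 33.9, 39.9 and 31.9 CPM in low cells, higher in high cells of each library. The 13 lymphoid and dendritic markers summed to 2.12, 1.93 and 1.90 CPM in high and 1.69, 0.814 and 3.99 CPM in low cells. The 8 endothelial markers summed to 8.32, 7.51 and 11.9 and 15.2, 9.77 and 20.1 CPM, with 0 of 8 past the filter. In 110 immune cells of the same libraries, defined by a UMI of Ptprc, a UMI of Tyrobp or Cd79a and at most 2 collagen UMIs, the myeloid sum was 19539 CPM, and Lyz2, C1qa and Cd52 stood at 2722, 2683 and 1827 CPM against 4.56, 3.04 and 2.93 CPM in high cells. Adgre1, Itgax and Cd3e, which define macrophages, dendritic cells and T cells, were at 0 or at most 0.289 CPM in the high cells of every library. No UMI of these 27 markers was found in 59.2% of high and 78.2% of low cells of all libraries. With at most 2 such UMIs a cell, 223 and 426 genes were at least 2-fold higher and lower in high cells, against 222 and 423 with no such limit. That limit kept 3210 of 3425 high and 891 of 904 low cells, so the counts had little room to change. Trem2 and Cd14, receptors best known from macrophages and chosen here after their values were seen, were at 59.7 and 211 CPM in high against 3.1 and 15.1 CPM in low cells, and at 169 and 465 CPM in the immune cells. The defining partner of Trem2 in macrophages, Tyrobp, is at 0 by the rule.

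Genes were compared where the mean over all class sums was at least 10 CPM, which 7996 genes met besides the 4 class II genes and 3 collagens of the rule. A log2 fold is log2(CPM + 1) in high minus low cells of a library, given as mean ± SD over 3 libraries (n = 3), and a gene is called higher or lower where the fold was at least 2 in that direction in each of the 3. By this measure 222 genes (2.78%) were higher and 423 (5.29%) lower in high cells, with a median over all genes of -0.10. At the looser limit of a log2 fold of 0.25, 853 genes (10.7%) were higher and 1693 (21.2%) lower. Where low cells of a library hold no UMI, the added 1 CPM sets the fold of that library. High cells were deeper than low cells (medians 10004, 10015, 10246 and 9373 against 7452, 8344, 8575 and 7935 UMIs), and when every cell was thinned to 5000 UMIs 217 genes were called higher and 403 lower. With the expected number of likely doublets removed, the counts were 224 and 429.

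**Figure D2:**
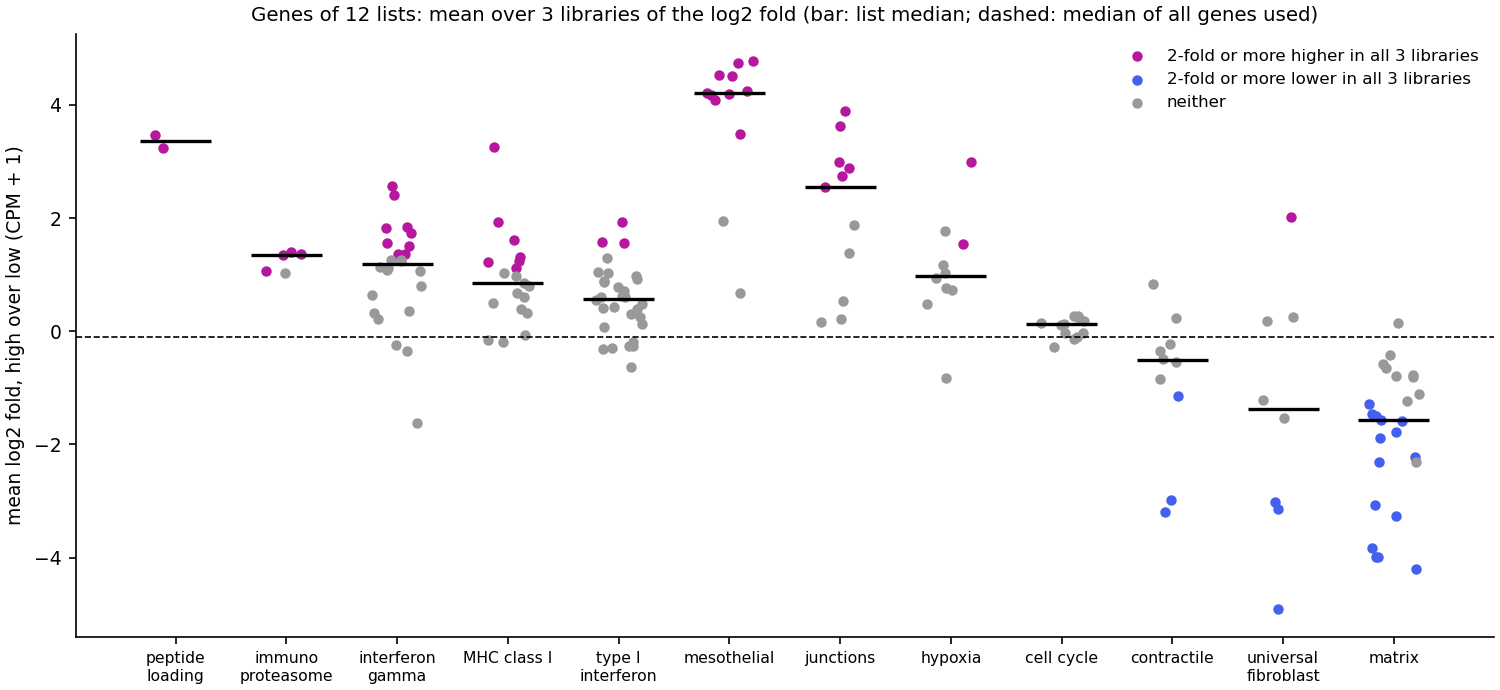
Each point is a gene of 1 of 12 lists, placed at its mean log2 fold of high over low cells across 3 libraries (CPM + 1), colored where the fold was at least 2 in the same direction in each library; bars are list medians and the dashed line is the median of all genes, -0.10. The medians of peptide loading, immunoproteasome, interferon-gamma, class I, mesothelial and junction genes lie above the line, and that of matrix genes below it.

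Both measured peptide-loading genes were higher in high cells, by the most of any immune list. H2-DMa, the alpha chain of H2-DM, reached 119.7, 137 and 96.1 CPM in high and 8.47, 14.6 and 6.94 CPM in low cells, a log2 fold of 3.47 ± 0.29. Its partner H2-DMb1, whose promoter letters are printed above, reached 136, 137 and 124 against 13.6, 17.1 and 9.54 CPM, a log2 fold of 3.24 ± 0.32. The ranges of high and low cells did not overlap for either gene. A UMI of H2-DMa was found in 60.0% of high, 6.42% of low and 14.2% of melanoma cells, and of H2-DMb1 in 65.8%, 8.41% and 20.9%. Thinned to 5000 UMIs, the shares were 41.3%, 4.42% and 9.18% for H2-DMa and 46.1%, 5.42% and 11.2% for H2-DMb1, so the shares in low cells lay below those in melanoma cells. The melanoma cells were not free of class II mRNA, with Cd74 at 362 CPM and 5.22% of them meeting the high limits on Cd74 and H2 UMIs. Whether the shares in low cells are background was therefore not tested. H2-DMb2, the near-identical second beta gene, was at 0.934, 0.674 and 1.47 CPM in high cells and 0 in low cells, H2-Eb2 at 0.595, 0.385 and 0.606 CPM against 0, and the subunits of the H2-DM inhibitor, H2-Oa and H2-Ob, had 2 and 1 UMIs over the high cells of the 3 libraries and 0 over low cells. These 4 genes lay under the level filter, so 2 of the 6 genes on the list were measured and both were called higher.

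Ciita was rare and found mostly in high cells. With the 3 libraries pooled, it had a UMI in 209 of 3425 high cells (6.10%, 95% exact interval 5.32 to 6.96) and in 5 of 904 low cells (0.553%, 0.180 to 1.29). It had a UMI in 0 of 134 melanoma cells, which allows a share of up to 2.24%. The intervals cover counting error only and pass over the difference between libraries. Thinned to 5000 UMIs, the shares were 3.09% and 0.553%. Its level was 7.14, 6.26, 7.15 and 6.83 CPM in high cells and 1.69, 2.44, 0 and 0.173 CPM in low cells of the 4 libraries. The classes lay closest in tdTomato+ eGFP-neg, at 6.26 and 2.44 CPM. Of the 904 low cells, 689 came from tdTomato-neg eGFP-neg, where low cells held 0.173 CPM. Rfxap, Nfyb, Nfyc and Creb1, which encode proteins that sit on the X and Y boxes with Ciita, had log2 folds of 0.36 ± 0.78, -0.08 ± 0.37, 0.02 ± 0.26 and -0.58 ± 0.21, and 0 of these 4 was called. Rfx5, Rfxank, Nfya and Ciita itself lay under the filter.

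Of 6 measured endosomal genes, 5 were not called and 1 was called lower. Ctsl and Ctsb, cathepsins that trim the invariant chain and other proteins, had log2 folds of -0.31 ± 0.15 and -0.19 ± 0.07, and Ctsd and Lgmn of 0.02 ± 0.18 and -0.17 ± 0.19. Ifi30, the interferon-inducible thiol reductase that opens disulfide bonds of antigens, was at 129.6, 96.4 and 104 CPM in high and 81.3, 57.8 and 80.7 CPM in low cells. Ctsh, a further cathepsin, was at 33.5, 70.8 and 64.1 CPM in high and 444, 596 and 495 CPM in low cells, a log2 fold of -3.22 ± 0.41 and the 1 call. Ctss, the cathepsin that cuts the invariant chain in dendritic cells, lay under the filter, with 80 UMIs over all high and 11 over all low cells.

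MHC class I genes, which present cytosolic peptides to CD8 T cells, were higher in high cells as a group, by less than the class II genes. Of 19 genes 7 were called higher and 0 lower, and the median log2 fold was 0.85 ± 0.03 (SD of the 3 library medians). The 19 genes summed to 14547, 16601 and 11463 CPM in high and 8375, 9101 and 6907 CPM in low cells. H2-K1, a classical heavy chain, reached 3145, 3348 and 2534 against 1304, 1456 and 1094 CPM, a log2 fold of 1.23 ± 0.04, while the other classical chain H2-D1 (0.98 ± 0.11) and the shared light chain B2m (0.80 ± 0.13) passed the 2-fold limit in some libraries or none. Some nonclassical heavy chains stood higher: H2-Q7 was at 1202, 1301 and 735 against 337, 331 and 187 CPM (1.92 ± 0.08), and H2-M2 at 23.4, 21.8 and 11.4 against 3.39, 0.814 and 0 CPM (3.25 ± 0.67). The fold of H2-M2 rests on few UMIs in low cells. H2-Q6 (1.61 ± 0.42), H2-T22 (1.32 ± 0.07) and H2-T23 (1.23 ± 0.07) were also called higher, with H2-T23 level with H2-K1. The nonclassical H2-Q4 and H2-M3 were not called. H2-Q6 and H2-Q7 are near-identical and the other class I heavy chains are related genes, so the split of reads among them is uncertain. Tap1, a subunit of the peptide pump into the endoplasmic reticulum, was called higher (1.12 ± 0.18), and its partner Tap2 (0.67 ± 0.15) was not. The general chaperones of the list, Calr, Canx and Pdia3, had log2 folds of -0.16 ± 0.14, -0.07 ± 0.19 and -0.20 ± 0.06, and Nlrc5, the class I counterpart of Ciita, of 0.32 ± 0.18.

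Immunoproteasome genes, which encode the inducible catalytic subunits and the PA28 cap that cut class I peptides, were higher in all 3 libraries. Psmb8 reached 987, 862 and 904 against 396, 328 and 343 CPM, a log2 fold of 1.37 ± 0.05, Psmb9 465, 408 and 404 against 174, 185 and 129.9 CPM (1.39 ± 0.25), and Psmb10 385, 359 and 347 against 183, 174 and 162 CPM (1.07 ± 0.03). Of the cap genes, Psme1 was called higher (1.34 ± 0.12) and Psme2, at 1.04 ± 0.17, missed the limit in 1 library. The count was 4 of 5, with a median log2 fold of 1.34 ± 0.13.

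**Figure D3:**
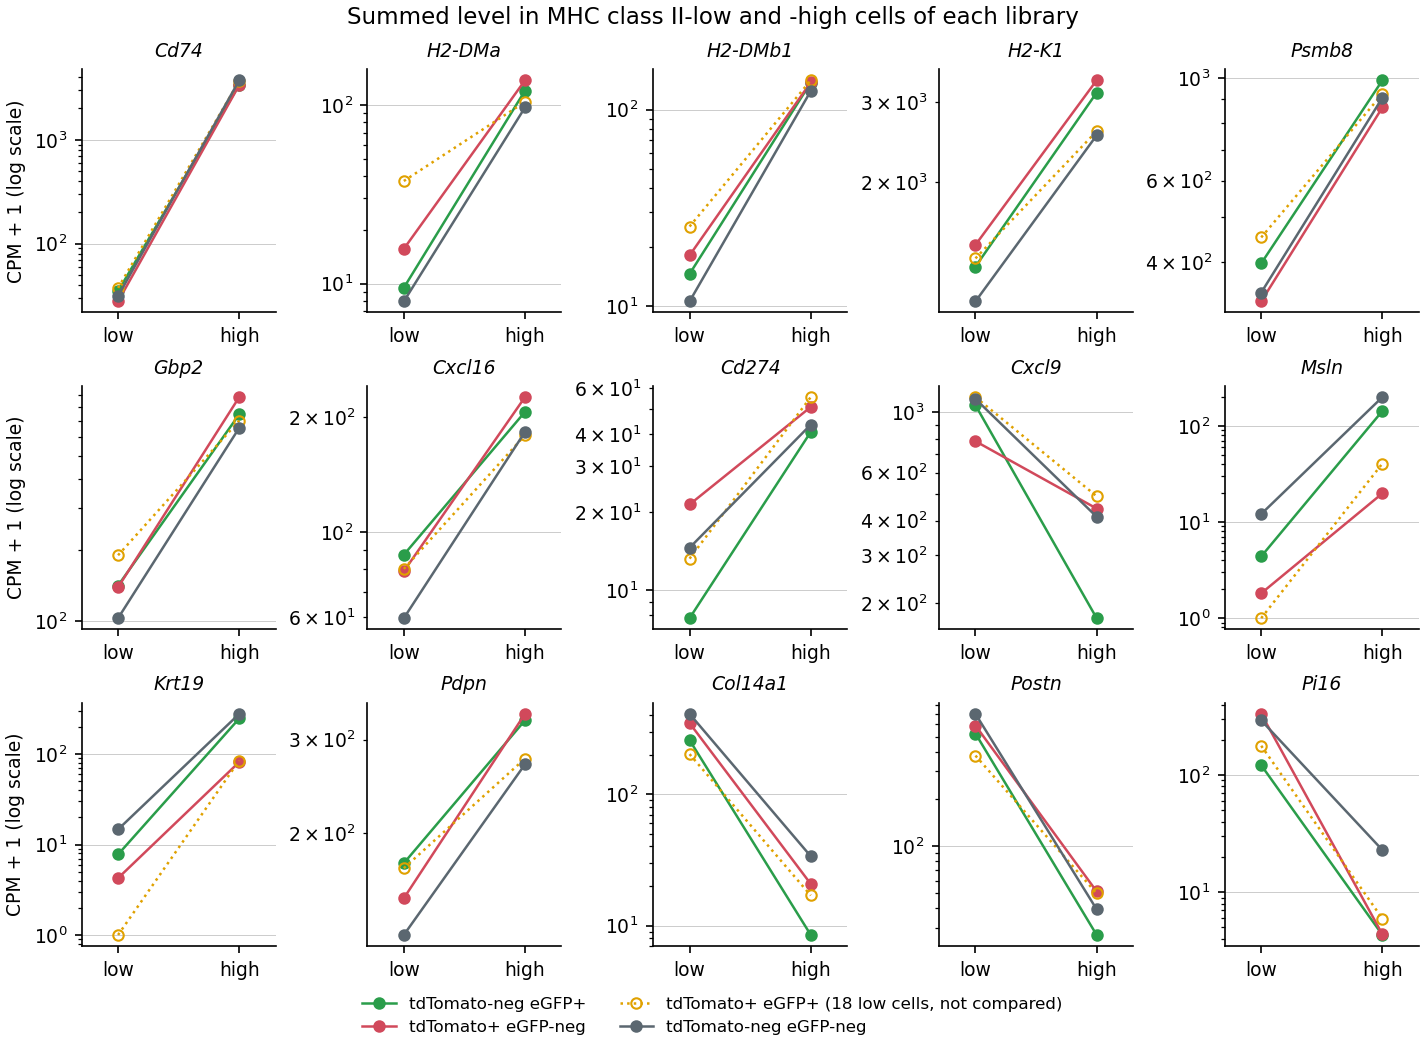
Each panel gives the summed level of 1 gene, as CPM + 1 on a log axis, in low and high cells of the 4 libraries, with the tdTomato+ eGFP+ library (18 low cells, not compared) dotted. Lines run upward in the 3 compared libraries for the class II, class I, immunoproteasome, Gbp2, Cxcl16, Cd274, mesothelial and Pdpn panels, and downward for Cxcl9, Col14a1, Postn and Pi16.

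Interferon-gamma-inducible genes followed class II in part. Of 28 genes 24 were measured, 9 were called higher and 0 lower, with a median log2 fold of 1.19 ± 0.06. The called genes were guanylate-binding proteins (Gbp2, Gbp3, Gbp4, Gbp6, Gbp8 and Gbp9) and the related Igtp and Ifi47, GTPases that act on vacuoles holding microbes, together with Cd274. Gbp2 was at 745, 881 and 653 CPM in high and 141, 138 and 102 CPM in low cells, a log2 fold of 2.57 ± 0.15, and Igtp at 382, 441 and 314 against 129, 109.9 and 80.3 CPM, a log2 fold of 1.84 ± 0.24, and the ranges of high and low cells did not overlap for either. B2m, the further gene printed above with an interferon element, was at 3969, 5278 and 3206 against 2529, 2829.5 and 1779 CPM, also without overlap, and was not called. Gbp genes are close relatives, and reads may be split among them. The transcription factors Irf1 (0.35 ± 0.21) and Irf8 (0.21 ± 0.32) were not called. Socs1, the feedback inhibitor, was at -0.25 ± 0.30. Ido1 had 0 UMIs in high and in low cells of the 4 libraries.

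No measured receptor or kinase of interferon met the 2-fold limit in high cells, although Ifnar2 was slightly above 0 in each library. Ifngr1 and Ifngr2, the chains of the interferon-gamma receptor, had log2 folds of -0.55 ± 0.08 and -0.34 ± 0.10, Ifnar1 and Ifnar2 of -0.05 ± 0.18 and 0.19 ± 0.08, and the kinase Jak1 of -0.89 ± 0.26. Of the 7 measured genes 0 were called in either direction.

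Type I interferon genes differed less and with more spread. Of 32 genes 30 were measured, 3 were called higher and 0 lower, with a median log2 fold of 0.58 ± 0.13. Bst2, which tethers viruses to the cell surface, was at 2442, 2033 and 2595 against 896, 777 and 699 CPM (1.57 ± 0.28), and Irf7, the factor that amplifies the response, at 254, 215 and 267 against 108, 69.2 and 74.4 CPM (1.56 ± 0.31). Oas3 (1.94 ± 0.47) was called as well. Isg15 (0.79 ± 0.40) and Ifit3 (1.04 ± 0.49, with a near-identical copy in Ifit3b) were above 0 in each library without meeting the limit, and Ifih1 (-0.86 to 0.80) and Ifi27l2a (-0.72 to 0.44) changed direction between libraries.

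Chemokines went in both directions. Cxcl16, the ligand of Cxcr6 on T cells, was at 206, 225 and 182 CPM in high and 86.4, 78.1 and 58.6 CPM in low cells, a log2 fold of 1.46 ± 0.19, and was the 1 gene called higher of 16 measured of 19. The 4 genes called lower were Ccl11, the eosinophil attractant (4.50, 11.8 and 71.5 against 432, 636 and 576 CPM, -4.97 ± 1.75), Ccl19, the Ccr7 ligand of lymphoid stroma (5.69, 31.6 and 27.2 against 122, 185 and 152 CPM, -3.05 ± 1.00), Cxcl12 (96.5, 453 and 211 against 788, 1746 and 1170.1 CPM, -2.47 ± 0.54) and Cxcl14 (-1.84 ± 0.44). The Cxcr3 ligands went apart: Cxcl10 was at 1462, 2132 and 1048 against 540.4, 763 and 577 CPM (1.26 ± 0.35), while Cxcl9 was at 175, 442 and 413 against 1059, 781 and 1116 CPM (-1.61 ± 0.90), lower in each library and 2-fold lower in some. Monocyte attractants Ccl2 (0.55 ± 0.36) and Ccl7 (0.03 ± 0.37) and the neutrophil attractants Cxcl1 (0.31 ± 0.32) and Cxcl5 (0.14 ± 0.84) were not called.

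Cxcl13, the B cell chemokine whose promoter drives the reporters, depended on the library. It was at 311, 3025, 1872 and 282 CPM in high cells and 79.6, 3189, 274 and 192 CPM in low cells of the 4 libraries. In the 3 compared, the log2 fold ranged from -0.08 to 1.95, with high and low cells level in the tdTomato+ eGFP-neg library and high cells above low cells in both tdTomato-neg libraries. Among other genes of lymphoid stroma, Vcam1 was at 544, 440.0 and 495 against 193, 251 and 184 CPM (1.24 ± 0.37) and Tnfsf13, which encodes APRIL, at 1.21 ± 0.36, both above 0 in each library and not called. Tnfsf13b (BAFF, -1.77 ± 0.52), Il6 (-1.52 ± 0.16) and the alarmin Il33 (-1.26 ± 0.17) were called lower, and 0 of the 11 measured of 15 higher.

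Cd80, Cd86 and Cd40 were rare in both classes. A Cd80 UMI was found in 26 of 3425 high cells (0.759%) and 29 of 904 low cells (3.21%), a Cd86 UMI in 8 (0.234%) and 3 (0.332%), and a Cd40 UMI in 3 (0.0876%) and 1 (0.111%). Thinned to 5000 UMIs, the Cd80 shares were 0.467% and 1.88%. In the 134 melanoma cells the 3 genes had 0 cells with a UMI, which allows a share of up to 2.24%. Cd70 was at 0 UMIs in both classes of every library. Tnfsf8, the ligand of CD30, was the 1 gene of 2 measured to be called, at 0.934, 4.14 and 1.73 CPM in high and 22, 36.6 and 23.1 CPM in low cells, a log2 fold of -3.20 ± 0.35, with a UMI in 1.17% of high and 12.5% of low cells. Tnfsf9, the ligand of 4-1BB, was at 0.40 ± 0.08, with a UMI in 12.7% of high, 10.2% of low and 20.9% of melanoma cells.

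Of the inhibitory ligands, Cd274 (PD-L1) was called higher. It was at 39.7, 49.8 and 42.4 CPM in high and 6.78, 20.3 and 13.5 CPM in low cells, a log2 fold of 1.74 ± 0.59, with a UMI in 22.2% of high and 8.30% of low cells (14.3% and 5.97% when thinned) and in 34.3% of melanoma cells, which also express it. Pdcd1lg2 (PD-L2) had at most 0.432 CPM in any class. Cd200 was at 88.1, 63.6 and 97.0 against 45.7, 22 and 20.1 CPM (1.55 ± 0.64), short of the limit in 1 library, Nectin3 was called lower (-1.12 ± 0.06), and Lgals9 had a log2 fold of 0.08 ± 0.34. In all, 1 of 7 measured genes was called higher and 1 lower.

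Mesothelial genes showed larger folds than any interferon list. Of 12 measured genes of 14, 10 were called higher and 0 lower, with a median of the genes' mean log2 folds of 4.20 (medians within a library 3.87 to 4.15). Msln, mesothelin, was at 142, 18.9 and 198 CPM in high and 3.39, 0.814 and 11.1 CPM in low cells (4.17 ± 0.79), the uroplakin Upk3b at 194, 54.0 and 183 against 16.9, 0.814 and 3.99 CPM (4.52 ± 0.95), and Krt19 at 247, 81.0 and 278 against 6.78, 3.26 and 13.7 CPM (4.50 ± 0.43). Levels in high cells of the tdTomato+ eGFP-neg library were the lowest of the 3 for each of these genes. Wt1, which mesothelial cells share with some fibroblasts, was at 211, 223 and 144 against 142, 119 and 96.6 CPM (0.68 ± 0.19) and was not called. Junction genes went along: 6 of 11 measured were called higher and 0 lower, among them the claudin Cldn3 (3.89 ± 1.85), the virus receptor and adhesion protein Cxadr (199, 135 and 184 against 23.7, 13.0 and 6.77 CPM, 3.62 ± 0.84) and the connexin Gjb5 (2.74 ± 0.48), while the general junction proteins Tjp1 (0.22 ± 0.22) and Gja1 (0.17 ± 0.16) were not.

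Matrix genes were lower in high cells. Of 25 genes 15 were called lower and 0 higher, with a median log2 fold of -1.57 ± 0.35, and the list summed to 16334, 21113 and 13672 CPM in high and 30653, 34057 and 30819.5 CPM in low cells. Interstitial matrix components differed most: Col14a1, a fibril-associated collagen, was at 7.47, 19.7 and 32.7 CPM in high and 257, 347 and 409 CPM in low cells (-4.20 ± 0.67), Postn, periostin, at 26.1, 50.3 and 38.5 against 523, 589 and 699.5 CPM (-3.98 ± 0.40), and Dpt, dermatopontin, at 19.2, 69.5 and 56.1 against 469, 853 and 809 CPM (-3.99 ± 0.49). Basement membrane collagens Col4a1 (-2.31 ± 0.20), Col4a2 (-2.22 ± 0.21) and Col15a1 (-3.08 ± 0.75) were lower as well, as were the crosslinking enzymes Lox (-1.77 ± 0.31) and Loxl1 (-1.29 ± 0.23). Dcn, decorin, was at 3503, 4586 and 3293 against 2776, 3943 and 3589.7 CPM (0.14 ± 0.24) and Fn1, fibronectin, at -0.42 ± 0.29, neither called. The collagens used to choose the cells, Col1a1, Col1a2 and Col3a1, had log2 folds of -1.04 ± 0.53, -0.99 ± 0.39 and -1.19 ± 0.31, given as a description.

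Genes of contractile and of universal fibroblasts were lower where they were called, with 1 exception. Tagln, an actin-binding protein of contractile cells, was at 57.9, 152 and 111 against 1284, 588 and 666 CPM (-2.99 ± 1.3) and Myl9 at -3.19 ± 1.04, while Acta2 (-0.85 ± 0.93) changed direction between libraries, and 3 of 10 measured contractile genes were called lower. Pericyte markers bear on this group, since Rgs5 was at 0, 0.578 and 0.260 CPM in high and 64.4, 32.6 and 0.347 CPM in low cells, and their part in it was not tested. Of 8 genes of universal fibroblasts, Pi16 (3.31, 3.37 and 21.9 against 120.3, 332 and 292 CPM, -4.91 ± 1.29), Mfap5 (-3.15 ± 0.13) and Ogn (-3.02 ± 0.37) were called lower, Dpp4 (0.26 ± 0.57) was not, and Igfbp6, which binds insulin-like growth factor, was called higher, at 1322, 1020.0 and 1295 against 335, 178 and 433 CPM (2.02 ± 0.47). The growth factor receptor Pdgfrb (-1.81 ± 0.46) and Thy1 (-1.41 ± 0.12) were called lower, and Pdgfra (0.09 ± 0.44) was not.

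Hypoxia genes were above the median of all genes with few calls. Of 10 genes, Egln3, the oxygen-sensing hydroxylase (138, 117 and 95.9 against 30.5, 18.7 and 4.16 CPM, 2.98 ± 1.1), and Bnip3 (1.55 ± 0.47) were called higher, and the median log2 fold was 0.98. Adm was the member in the other direction, at -0.82 ± 0.30. Cell cycle genes had a median of 0.12 with 0 of 12 called, and the immediate-early and stress genes of -0.03, where Atf3 (335, 322 and 457 against 134, 132 and 206 CPM, 1.25 ± 0.09) was the 1 called of 11. Melanoma RNA was present in both classes of the tdTomato-neg eGFP-neg library, where Mlana was at 57.7 CPM in high and 71.8 CPM in low cells, and in low cells of the tdTomato+ eGFP-neg library, at 47.2 against 3.27 CPM in its high cells, and 0 of the 3 measured melanoma genes was called.

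Outside the lists, the 15 genes with the largest fold in their weakest library were taken in each direction. On the high side, Aqp3, a water and glycerol channel, was at 25.5, 21.6 and 23.9 CPM in high and 0, 0 and 0.173 CPM in low cells, and Dmkn, dermokine, a secreted protein of epithelia, at 684, 289.5 and 650.3 against 47.4, 8.14 and 29.3 CPM (4.41 ± 0.58). Stmn2, a microtubule regulator known from neurons, was at 179, 151 and 321 against 10.2, 7.32 and 23.8 CPM (3.97 ± 0.25), and Hpgd, which breaks down prostaglandins, at 101, 107 and 93.2 against 10.2, 4.88 and 4.86 CPM (3.8 ± 0.53). Lgals7 (3.75 ± 0.85), Anxa8 (3.31 ± 0.53), Serpinb6b (3.45 ± 0.42), Tesc, Pcdh15, Zfp804b, Gucy1a1, Stfa3, Prr15, Pkhd1l1 and Clca3a2 completed the 15 highest. On the low side stood Pcsk5, a proprotein convertase (3.40, 3.37 and 6.66 against 94.9, 271 and 169 CPM, -4.96 ± 0.87), Aspn, a small matrix proteoglycan (-5.43 ± 1.17), Col8a1 (-5.17 ± 0.81), Lama2, a laminin chain (-4.64 ± 0.75), Fbn2 (-4.28 ± 0.38) and Svep1 (-4.42 ± 0.56). Ebf1 (12.2, 30.2 and 42.7 against 612, 639.6 and 735 CPM, -4.65 ± 0.77) and Ebf2 (-4.49 ± 0.62), related transcription factors of mesenchymal and adipogenic cells, and Ptx3, a soluble pattern receptor (11.5, 17.1 and 36.0 against 327, 979 and 594 CPM, -4.83 ± 0.88), were further members, as were Srpx2, Lrrc17, Dkk2, Aoc3 and Arhgap24.

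The mesothelial genes were then held down, by comparing only cells with at most 2 UMIs of the 14 mesothelial genes. That left 115, 297 and 119 high and 58, 119 and 582 low cells. Mesothelial RNA still differed: of 2 mesothelial genes measured here, Nkain4 was called higher (24.1, 35.9 and 27.1 against 4.14, 2.03 and 5.28 CPM, 2.69 ± 0.80). The other, Wt1, was not called (0.12 ± 0.62). Peptide loading was as far apart as before, with H2-DMa at 124, 156 and 97.7 against 10.4, 13.2 and 7.39 CPM (3.49 ± 0.05) and H2-DMb1 at 123, 149 and 129 against 8.28, 15.3 and 9.71 CPM (3.52 ± 0.28). Of 7667 genes, 139 (1.81%) were called higher and 310 (4.04%) lower, and 85 of the 139 (61.2%) and 243 of the 310 (78.4%) were among those called in all cells, being 38.3% of the 222 and 57.4% of the 423. Interferon-gamma genes had a median log2 fold of 1.05 ± 0.19 with 9 of 24 called higher, the immunoproteasome 1.07 ± 0.13 with 0 of 5, class I 0.68 ± 0.04 with 2 of 18, and type I interferon genes 0.31 ± 0.04 with 0 of 28, beside a median over all genes of -0.23. Gbp2 was at 591, 817 and 316 against 128, 127 and 88.5 CPM (2.23 ± 0.43). Of 8 measured junction genes 5 were called higher, while Tjp1, above 0 in each library in all cells, was below 0 in each here (-0.34 ± 0.09). Of 25 matrix genes 8 were called lower, with a median of -1.12.

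Hypoxia genes and Cxcl9 differed in another way in the cells poor in mesothelial UMIs. Hypoxia genes were called higher in 8 of 10 cases, with a median log2 fold of 1.65 ± 0.12, and Vegfa was at 253, 244 and 172 CPM in high and 68.3, 93.6 and 60.8 CPM in low cells (1.58 ± 0.26), Ndrg1 at 264, 161 and 163 against 72.5, 59.0 and 44.1 CPM (1.72 ± 0.24), and Pdk1 at 2.06 ± 1.26. Cxcl9 was at 781, 972 and 2411 CPM in high and 1263, 883 and 1186 CPM in low cells (0.16 ± 0.86), so it was lower in high cells of the tdTomato-neg eGFP+ library, within 0.14 on the log2 scale in tdTomato+ eGFP-neg and 2-fold higher in tdTomato-neg eGFP-neg. Cxcl10 was called higher (1644, 2280.2 and 1569 against 567, 673 and 556 CPM, 1.6 ± 0.14), and Cxcl12 (-0.71 ± 0.53) and Ccl19 (-1.99 ± 1.63) were no longer called lower. Ccl5, a T cell attractant that was not called in all cells (0.71 to 4.38), was called higher here (3.21 ± 2.82). Il33 had a mean log2 fold of 0.029 here.

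Among high cells alone, those with at least 10 mesothelial UMIs (760, 309, 66 and 806 cells) were set beside those with at most 2 (115, 297, 56 and 119 cells) in the 4 libraries. The mesothelial counts chose these cells, and both kinds had passed the same limits on Cd74 and the H2 genes, so their levels of those genes are a description. Cd74 was at 3407, 3378, 3903 and 3759.5 CPM in the first and 3211, 3455, 3881 and 3404 CPM in the second, a log2 difference of 0.05 ± 0.08 (n = 4), and H2-Aa, H2-Ab1 and H2-Eb1 differed by 0.24 ± 0.11, 0.02 ± 0.12 and 0.31 ± 0.12, with H2-Aa and H2-Eb1 higher in mesothelial-rich cells of each library. Outside the rule, H2-DMa differed by -0.04 ± 0.28 and H2-DMb1 by -0.16 ± 0.27. Of 7576 genes 159 (2.1%) were at least 2-fold higher and 115 (1.52%) at least 2-fold lower in mesothelial-rich high cells in every library, with a median of 0.20. Interferon-gamma genes had a median difference of 0.05 ± 0.24, class I genes 0.30 ± 0.16 and type I interferon genes 0.52 ± 0.20. Cxcl9 was at 65.1, 158, 66.8 and 150.04 CPM in mesothelial-rich and 781, 972, 1159.6 and 2411 CPM in mesothelial-poor high cells, a log2 difference of -3.57 ± 0.68, and Cxcl12 at 27.8, 126, 45 and 76.2 against 488, 789, 1103 and 1065 CPM (-3.78 ± 0.83), with no overlap between the 2 kinds of cell for either gene. Cxcl13 was lower in mesothelial-rich high cells of every library (-1.19 ± 0.96), Igfbp6 higher (1.83 ± 0.40), and the hypoxia genes had a median of -0.71 ± 0.24.

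The reverse restriction, to cells with at least 10 mesothelial UMIs, left too few low cells (17 in all). With the low limit widened to at most 4 UMIs of Cd74 and 4 of the H2 genes, 2 libraries could be compared, tdTomato-neg eGFP+ (760 high and 62 others) and tdTomato-neg eGFP-neg (806 and 79). H2-DMa and H2-DMb1 had a median log2 fold of 2.55 and interferon-gamma genes of 0.51, the immunoproteasome of 0.43, class I of 0.43, type I interferon genes of 0.13 and matrix genes of -0.33, beside -0.08 over all genes. For some genes called in all cells the mean log2 fold had the opposite sign here. Krt18 did so in both libraries (-0.54, range -0.81 to -0.28). The 2 libraries differed in direction for Ctsh (0.017, -0.20 to 0.24), Cxcl14 (0.15, -0.34 to 0.64), Lum (0.18, -0.77 to 1.12), Mfap5 (0.18, -0.19 to 0.54) and Krt8 (-0.39, -0.88 to 0.11). Krt8 and Krt18 belong to the mesothelial genes whose UMIs chose these cells. Of 7912 genes 40 (0.506%) were called higher and 64 (0.809%) lower. The 2 sides lie closer together in class II here than in the main comparison, since the others held up to 4 UMIs.

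**Figure D4:**
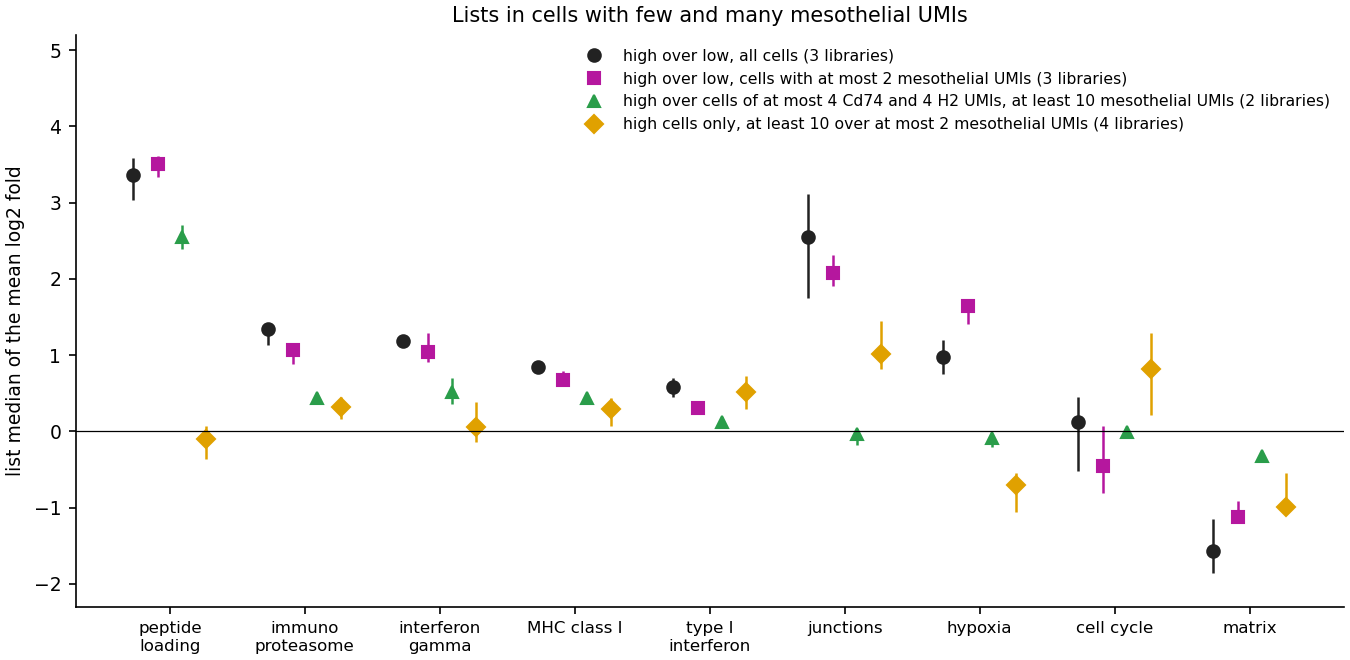
Points are list medians of the mean log2 fold, with lines from the lowest to the highest library median, for high over low cells (all cells, and cells with at most 2 mesothelial UMIs), for high cells over cells of at most 4 Cd74 and 4 H2 UMIs among cells with at least 10 mesothelial UMIs, and for mesothelial-rich over mesothelial-poor high cells. The loading genes lie between 2.55 and 3.51 in the first 3 and at -0.10 in the last, and hypoxia genes between -0.71 and 1.65.

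Peptide-loading and immunoproteasome genes followed Cd74 in steps over all 10198 eligible cells, and other lists did so in part. In 6 bins of Cd74 UMIs (0 to 1, 2 to 4, 5 to 9, 10 to 19, 20 to 49, 50 or more), H2-DMa and H2-DMb1 summed with the other genes on the loading list to 26.2, 58.8, 99.4, 133, 198 and 331 CPM in the tdTomato-neg eGFP-neg library. The 5 immunoproteasome genes summed to 1319, 1782, 2188, 2675, 3096 and 3477 CPM there. Both climbed from bin to bin in each of the 4 libraries. The mean log2 difference of class I genes from the lowest bin reached 0.82, 0.87, 0.93 and 0.99 in the highest bin of the 4 libraries, and of interferon-gamma genes 0.74, 1.2, 1.15 and 0.91. Summed, the interferon-gamma genes did not climb in every step, at 3847, 5445, 4599, 4856, 5280.1 and 5667 CPM in the tdTomato-neg eGFP-neg library. Class I genes dipped once, from 0.40 to 0.38 between the bins of 2 to 4 and 5 to 9 UMIs of the tdTomato+ eGFP+ library, whose bins held 35 to 144 cells, and type I interferon genes dipped in that library and in tdTomato-neg eGFP+. The mean log2 difference of matrix genes went down from bin to bin, to -2.01, -1.66, -1.58 and -2.20, whereas their sum was 30557, 24611, 18304, 15678, 13539 and 14307 CPM in the tdTomato-neg eGFP-neg library and was higher in the last bin than in the one before it in 3 of the 4 libraries. The median of mesothelial UMIs also went up, from 1 to 20, 8, 9 and 19 per cell, and its part in the trend was not tested within bins. Depth moved with the bins as well, and its median in the lowest and highest bin was 8285 and 10442 UMIs in the tdTomato-neg eGFP-neg library.

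**Figure D5:**
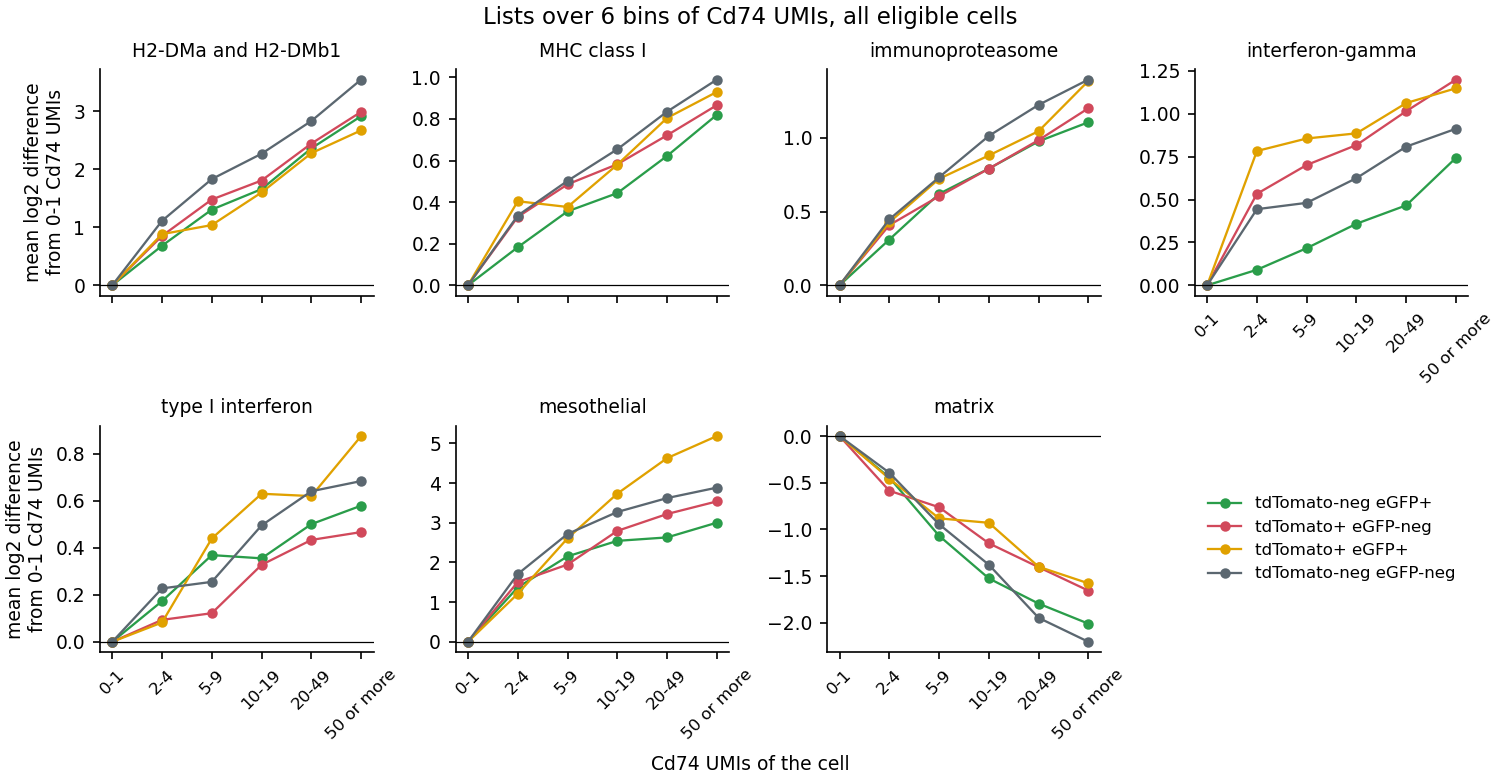
Each panel gives, for 1 gene list and 4 libraries, the mean log2 difference of its genes from the lowest of 6 bins of Cd74 UMIs per cell, over all eligible cells. Lines for H2-DMa and H2-DMb1 end between 2.67 and 3.55, those for mesothelial genes between 3.00 and 5.19 and those for matrix genes between -2.20 and -1.58.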

How the data were processed

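Single-cell 3′ mRNA was measured in 4 sorted libraries, 1 per reporter gate. The authors deposited UMI counts per gene (33696 genes) and cell barcode, not normalized. Per the file headers the counts came from Cell Ranger 8.0.0, and the submitters' processing notes name Cell Ranger 10.0.0, STAR, Seurat 5.0 and the build GRCm39. The versions differ, and which was used is not settled here. Promoter letters come from RefSeq (GRCm38.p6), so no coordinate of one build was used with the other.

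Barcodes were kept at 500 to 6000 detected genes with no more than 10% of UMIs mitochondrial (6006, 4952, 920 and 10813 of 6461, 5299, 984 and 11745 barcodes), and classes were cut by UMIs as the report states. Counts were summed per class and library, divided by the class total and compared as log2(CPM + 1) within the 3 libraries with 50 or more cells a side. Genes needed a mean of 10 CPM. A call needed a log2 fold of 1 in every library, and a second rule 0.25. The classes are cut from the same counts and each gate is 1 library, so there was no test, no p-value and no replicate error. Intervals and floors (3 counts) cover counting error only. A class cut from a count is a range, not a type, and 57 barcode sequences occurred in more than 1 library (24 of the high or low cells), which were kept.

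No doublets were removed in the main result. Scrublet's own threshold (scanpy 1.11.5) marked 0, 0, 3 and 0 cells and was not relied on; an alternative removed the expected number by score (310, 210, 7 and 1016 cells). Reads of near-identical or related genes (H2-Q6 and H2-Q7, other class I heavy chains, the Gbp family, Ifit3 and Ifit3b, H2-DMb1 and H2-DMb2, Tgtp1 and Tgtp2) may be split, so their values are uncertain. Named genes are members of 28 lists (323 genes) and, outside them, the 15 in each direction with the largest fold in their weakest library among called genes, leaving out gene models without a symbol, Gm and Rik names and ribosomal and mitochondrial genes. Some genes these rules name are not reported here. Trem2 and Cd14 were added after their values were seen. The members and lists were chosen with earlier results of these data known. Alternatives changed the UMI window, mitochondrial limit, doublets, thinning, pseudocount, scaling, level filter, Cd74 limits, libraries, and cells by mesothelial, immune, cell cycle, Xist or Y-linked UMIs. Comparisons by 10 or more mesothelial UMIs with wider low limits and by 0 mesothelial UMIs, among high cells, over Cd74 bins and over all 4 libraries were chosen after seeing the data. The scripts ran in Python 3.11.15 with numpy 2.4.6, scipy 1.17.1, pandas 2.3.3 and matplotlib 3.10.9 and were tested on simulated data.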

Additional observations from a re-analysis of the deposited data

How the results depend on the processing

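Folds of high over low cells were paired by library. Shares and levels given as 1 value per class were not, since they pool the cells of several libraries. In the 3 libraries compared, 689 of 904 low and 1212 of 3425 high cells came from tdTomato-neg eGFP-neg, so pooled values mix class with library. Between gates, no paired analysis was possible because each gate is 1 library. The mean share of high cells over the 4 libraries was 37.4%, and the list medians were 0.85 for class I, 1.34 for the immunoproteasome, 1.19 for interferon-gamma, 0.58 for type I interferon, 4.20 for mesothelial and -1.57 for matrix genes. These medians kept their sign under every alternative that gave a value. Leaving out 1 library gave 245 to 296 genes higher and 445 to 567 lower, and medians of 0.80 to 0.85 (class I), 1.08 to 1.22 (interferon-gamma) and 4.06 to 4.45 (mesothelial). With all 4 libraries class I, interferon-gamma and mesothelial medians were 0.80, 1.32 and 4.51.

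By mesothelial UMIs, values were as follows. With at most 2, the share was 19.1%, 139 genes were higher, and the medians in the order above were 0.68, 1.07, 1.05, 0.31, 1.40 and -1.12, with Il33 at 0.029. With none (1 library), the share was 14.4%, 536 genes were higher and 1143 lower, and the medians were 1.01 (immunoproteasome), 1.47 (interferon-gamma), 0.78 (type I) and -0.99 (matrix), with Tagln at 0.16. With 10 or more the share was 59.8% and, as no library held 50 low cells, no gene value could be had. With the wider low limits (2 libraries), 40 genes were higher and 64 lower, and the medians were 0.43, 0.43, 0.51, 0.13, 0.12 and -0.33. Mean log2 folds there changed sign for some genes. Those that did so in both libraries include Loxl1 (0.37), Krt18 (-0.54), Bnip3 (-0.36), Pcdh15 (-1.20), Zfp804b (-0.33) and Pkhd1l1 (-0.23). Those whose 2 libraries differed in direction, so that no reversal is shown, include Ctsh (0.017), Cxcl14 (0.15), Il33 (0.18), Lum (0.18), Mfap5 (0.18), Ogn (0.050), Thy1 (0.39), Upk1b (-0.030), Krt8 (-0.39), Krt19 (-0.0024), F11r (-0.036), Atf3 (-0.078) and Anxa8 (-0.12). The cause was not tested.

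By other limits, high cells of at least 40 Cd74 UMIs made up 10.8%, with medians of 1.03 (class I) and 4.4 (mesothelial), and of at least 10 made up 57.4%, with 0.76 (class I) and 1.11 (interferon-gamma). Low cells without Cd74 gave a mesothelial median of 4.95. Cells with Y-linked UMIs only (1 library) gave 536 genes higher and 888 lower and medians of 0.94, 1.53, 1.44, 0.98, 3.56 and -2.21, and cells with Xist only (2 libraries) 1.15 (immunoproteasome), 1.3 (interferon-gamma), 0.29 (type I) and 3.28 (mesothelial). The interferon-gamma median was 1.41 in cells of 7000 to 12000 UMIs and 1.25 with at most 2 cell cycle UMIs (2 libraries each), 1.28 as a mean over cells, 1.29 with centred folds and 1.08 with 5 CPM added. Class I was at 0.94 after thinning, 0.96 with centred folds and 0.91 for genes of at least 50 CPM. Mesothelial genes were at 4.45 with at most 2 immune UMIs, 3.38 with 5 CPM and 4.62 with 0.1 CPM added. The level filter set the counts, at 94 higher and 172 lower with 50 CPM and 411 and 708 with none. Genes near 10 CPM rest on few UMIs in the 70 low cells of the tdTomato-neg eGFP+ library, which limits their folds.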
